A study of Mus musculus with 9 samples.

Results

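The 8 purinergic and ectoenzyme genes, of 29229 genes counted, were followed across donor T cells from allogeneic transplants, syngeneic transplants and mice that were not transplanted. They encode the ATP receptor P2rx7, the adenosine receptor Adora2a and the enzymes Entpd1, Nt5e, Ada, Dpp4, Cd38 and Art2b, most of them on the cell surface. They were taken by symbol from the gene identifiers of the count table, and all 8 passed the filter on low counts that left 19609 genes for testing. Live CD3+ CD45.2+ cells were sorted from spleen and sequenced as total RNA after ribosomal RNA depletion, with 3 libraries per group. Allogeneic libraries came from CByJ.SJL(B6)-Ptprca/J recipients (H-2d, CD45.1) at day 7 after 8 Gy and 1000000 T cells. Syngeneic libraries came from B6.SJL-Ptprca Pepcb/BoyJ recipients (H-2b, CD45.1) at day 7 after 9.5 Gy and 8500000 T cells. Naive libraries came from healthy C57BL/6 mice of 8 to 12 weeks. In both transplants the T cells and 5000000 T-cell-depleted marrow cells were from C57BL/6 (CD45.2) donors, so that progeny of the marrow also carried the sorted allele. Donors and recipients were females of 8 to 12 weeks, and each transplant library pooled 2 to 4 recipients. Antigen, strain, radiation dose and T-cell dose cannot be told apart between the transplants.

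Cells release ATP when they are damaged or activated, and T cells read it at the surface. P2X7, the product of P2rx7, is a cation channel that opens at high ATP and can lead to shedding of surface proteins, inflammasome activity and death. CD39, the product of Entpd1, strips ATP to AMP, CD73, the product of Nt5e, turns AMP into adenosine, and the adenosine receptor encoded by Adora2a raises cyclic AMP and restrains T-cell activation. Adenosine deaminase, encoded by Ada, ends that signal by making inosine, and in humans it docks on CD26, the peptidase encoded by Dpp4. A parallel route uses NAD: in mouse T cells ARTC2.2, the product of Art2b, attaches ADP-ribose from extracellular NAD to P2X7 and so opens it, and CD38 consumes NAD.

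Total counts ranged from 103953932 to 176678189 per library, and the members held from 533 counts (Cd38 in naive library 3) to 17620 counts (Dpp4 in allogeneic library 2). Levels are counts per 1000000 of the library total (CPM), as mean ± SD over 3 libraries. Log2 fold changes are given ± SE, and calls are at an adjusted p under 0.05. The summed level of 12 T-cell-defining markers was 4676 to 4961 CPM in allogeneic, 3258 to 3876 CPM in syngeneic and 4850.4 to 5267 CPM in naive libraries. RNA of other cells differed between the groups. Erythroid markers (11 genes) summed to 22.3 to 62.8 CPM in allogeneic, 2342 to 6143 CPM in syngeneic and 2.74 to 3.43 CPM in naive libraries. Macrophage and monocyte markers (15 genes, Fcgr1 at 0 in naive) summed to 51.0 to 88.9 CPM, 54.2 to 212 CPM and 5.00 to 6.43 CPM in the same order of groups. Syngeneic library 1 was the lowest of its group in both lists. Neutrophil markers (12 genes) summed to 668 to 1179.5 CPM in allogeneic, 436 to 1447 CPM in syngeneic and 7.43 to 12.9 CPM in naive libraries. B-cell markers (13 genes) summed to 969 to 1506 CPM in allogeneic, 538 to 966 CPM in syngeneic and 470.5 to 496 CPM in naive libraries. Among T-cell lineage markers, Cd4 averaged 423 ± 19.6 CPM in allogeneic, 198 ± 25.8 CPM in syngeneic and 449.6 ± 17.5 CPM in naive libraries. Cd8a averaged 393 ± 64.4 CPM, 585 ± 68.5 CPM and 426 ± 24.9 CPM in the same order. Of 6 CD4 and CD8 lineage markers, 1 was called higher and 3 lower in syngeneic against naive libraries, and 1 and 0 in allogeneic against naive libraries. The part of other cells and of CD4 and CD8 make-up in the changes of the members was not tested. In bulk libraries fewer cells of a type and less RNA per cell cannot be told apart.

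In allogeneic against syngeneic libraries, Entpd1, P2rx7, Adora2a and Cd38 rose and Nt5e, Art2b and Ada fell, while Dpp4 did not pass the test. That is 4 members higher and 3 lower, where 24.3% of all tested genes were called higher and 20.7% lower by edgeR. The CPM ranges of the 2 groups did not overlap for 7 of the 8 members, as for 52.7% of all tested genes. Against naive libraries, the allogeneic group had 4 members higher (Entpd1, Cd38, Adora2a and P2rx7) and 2 lower (Art2b and Nt5e), beside 31.8% and 25.9% of all genes. The ranges did not overlap for 7 members, beside 65.1% of all genes. In syngeneic against naive libraries 3 members were higher (Cd38, Ada and Entpd1) and 2 lower (P2rx7 and Art2b), beside 22.4% and 19.5% of all genes, and the ranges did not overlap for 5 members, beside 56.5% of all genes. Both comparisons with naive mice share the same 3 naive libraries.

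**Figure D1:**
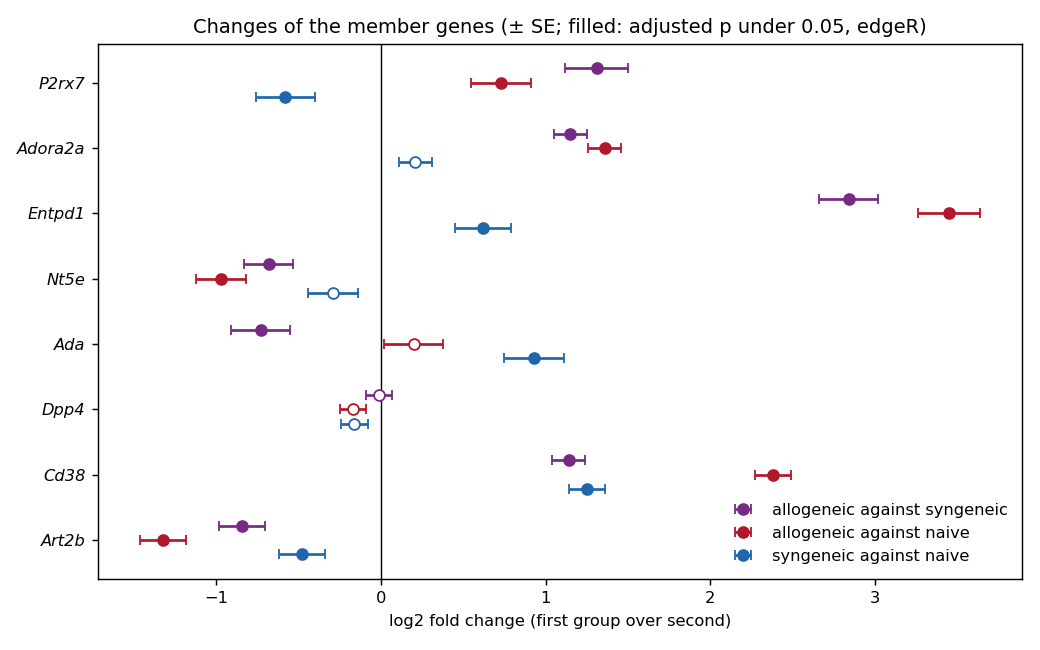
Log2 fold changes ± SE of the 8 members in 3 comparisons, with the first-named group over the second and filled points for an edgeR adjusted p under 0.05. Entpd1 lies farthest to the right at 2.84 against syngeneic and 3.45 against naive libraries, and Dpp4 has 3 open points near 0.

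The calls of the members in allogeneic libraries, against either group, kept their direction and their call under all 18 alternatives. The 3 comparisons are relative to all RNA of a library. Scaling to the genes of the CD3 complex in place of all genes moved the median of all genes by -0.56 in allogeneic against syngeneic, by 0.09 in allogeneic against naive and by 0.65 in syngeneic against naive libraries. It gave 1336 genes higher and 9967 lower in allogeneic against syngeneic libraries, beside 4766 and 4066 with the main scaling. In syngeneic against naive libraries it gave 10651 genes higher and 521 lower, beside 4386 and 3827, and the members then stood at 5 higher and 0 lower. Relative to CD3 mRNA, the lower calls of P2rx7 (0.05, adjusted p = 0.837) and Art2b (0.16, adjusted p = 0.425) in syngeneic libraries were therefore lost in edgeR's test.

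Promoter windows of RefSeq (GRCm38.p6, from 250 bases before to 50 bases after a transcript start) were matched for 7 members. Those of the opposed pairs are shown, Entpd1 with Nt5e and Cd38 with Art2b, because their levels moved in opposite directions in allogeneic libraries. Each is written 5′ to 3′ in the direction of the gene, and capitals mark matches to the motifs named after them.
Entpd1, first start, chr19:40612116-40612415, plus strand: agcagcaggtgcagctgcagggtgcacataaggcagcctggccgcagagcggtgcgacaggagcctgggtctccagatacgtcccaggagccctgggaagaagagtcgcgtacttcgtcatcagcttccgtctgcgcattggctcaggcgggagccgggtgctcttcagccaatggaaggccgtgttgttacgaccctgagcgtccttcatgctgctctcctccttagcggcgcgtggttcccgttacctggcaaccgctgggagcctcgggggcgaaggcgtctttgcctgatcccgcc
Entpd1, second start, chr19:40659520-40659819, plus strand: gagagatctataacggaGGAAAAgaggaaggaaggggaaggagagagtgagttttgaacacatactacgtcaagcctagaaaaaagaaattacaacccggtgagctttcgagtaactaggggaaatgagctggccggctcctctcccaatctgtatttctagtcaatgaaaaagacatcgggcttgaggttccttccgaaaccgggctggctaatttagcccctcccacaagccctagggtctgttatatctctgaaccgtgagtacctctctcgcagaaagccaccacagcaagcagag
Nt5e, chr9:88327359-88327658, plus strand: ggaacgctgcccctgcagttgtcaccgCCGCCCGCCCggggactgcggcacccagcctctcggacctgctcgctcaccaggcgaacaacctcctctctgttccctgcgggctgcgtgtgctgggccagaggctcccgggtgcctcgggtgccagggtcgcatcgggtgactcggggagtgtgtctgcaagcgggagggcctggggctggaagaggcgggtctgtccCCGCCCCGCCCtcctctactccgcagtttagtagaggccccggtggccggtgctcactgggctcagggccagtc
Cd38, chr5:43868559-43868858, plus strand: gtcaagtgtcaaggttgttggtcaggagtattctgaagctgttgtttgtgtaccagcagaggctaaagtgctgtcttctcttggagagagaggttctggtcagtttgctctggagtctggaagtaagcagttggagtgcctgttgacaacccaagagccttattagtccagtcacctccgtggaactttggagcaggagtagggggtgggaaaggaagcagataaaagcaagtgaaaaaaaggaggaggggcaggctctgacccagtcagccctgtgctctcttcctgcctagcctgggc
Art2b, chr7:101581112-101581411, minus strand: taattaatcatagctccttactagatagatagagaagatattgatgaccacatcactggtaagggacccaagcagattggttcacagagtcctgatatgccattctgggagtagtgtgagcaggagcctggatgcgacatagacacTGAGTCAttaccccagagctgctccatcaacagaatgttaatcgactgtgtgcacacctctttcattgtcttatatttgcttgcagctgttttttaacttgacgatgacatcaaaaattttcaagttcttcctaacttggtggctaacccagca

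Letters of 8 motifs were searched on both strands in all 32851 promoter windows. TGANTCA (AP-1) was present in 7.81% of windows, TGACGTCA (CRE, bound by cyclic AMP-responsive factors) in 1.79%, AGGTGTGA (T-box) in 1.28%, and TGTGGTT (RUNX) in 5.27%. CCGGAAGT (ETS) was present in 3.89%, CTTTGAT (TCF/LEF) in 3.73%, GGGCGG (GC box) in 35.7% and TTTTCC (NFAT core) in 23.4%. The Nt5e window held 4 GC boxes, in overlapping pairs, and the Art2b window an AP-1 match starting 104 bases before its RefSeq start. The Art2b window lies inside the gene as annotated by GENCODE, whose 5′ end is at 101585600 on the minus strand. Sequence at that 5′ end was not searched. The second Entpd1 window held an NFAT core, and the first Entpd1 window and the Cd38 window held none of the 8. The windows of Nt5e and of the first Entpd1 start had 23 CpG dinucleotides each, that of Cd38 had 1 and that of Art2b 3, against a median of 7 over all windows. These are matches of letters in short windows and were not tested for binding.

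The gene of the ATP receptor, P2rx7 (ENSMUSG00000029468, chromosome 5, 122643911 to 122691432, plus strand) was at 95.5, 78.5 and 79.0 CPM in allogeneic libraries 1 to 3, against 35.8, 35.8 and 32.0 CPM in syngeneic and 37.5, 66.1 and 56.3 CPM in naive libraries. The 3 groups did not overlap, with the allogeneic group highest and the syngeneic group lowest, and naive library 1 lay close to the syngeneic libraries. P2rx7 rose 2.48-fold in allogeneic against syngeneic libraries (log2 fold change 1.31 ± 0.19, edgeR adjusted p = 0.000197) and 1.66-fold against naive libraries (0.73 ± 0.18, edgeR adjusted p = 0.00541). It fell in syngeneic against naive libraries (-0.58 ± 0.18, edgeR adjusted p = 0.0256). That call was lost in edgeR without naive library 2 (adjusted p = 0.108), naive library 3 (0.0835), syngeneic library 2 (0.0646) or syngeneic library 3 (0.0968).

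Adora2a (ENSMUSG00000020178, chromosome 10, 75316877 to 75334784, plus strand) was at 61.4, 77.3 and 79.9 CPM in allogeneic libraries, against 33.7, 30.1 and 35.1 CPM in syngeneic and 28.0, 28.9 and 31.0 CPM in naive libraries. Every allogeneic library was above every other library, and the syngeneic and naive ranges overlapped. The adenosine receptor gene rose 2.22-fold against syngeneic (1.15 ± 0.10, edgeR adjusted p = 4.35e-06) and 2.56-fold against naive libraries (1.36 ± 0.10, edgeR adjusted p = 4.64e-07). Between syngeneic and naive libraries the change was 0.21 ± 0.10 and did not pass (edgeR adjusted p = 0.109). It passed without syngeneic library 2 (0.28, adjusted p = 0.0443) and with scaling to CD3 genes (0.85, adjusted p = 0.000149). P2rx7 and Adora2a, which respond to the substrate and to the end product of the same enzyme chain, were thus both higher in allogeneic libraries.

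**Figure D2:**
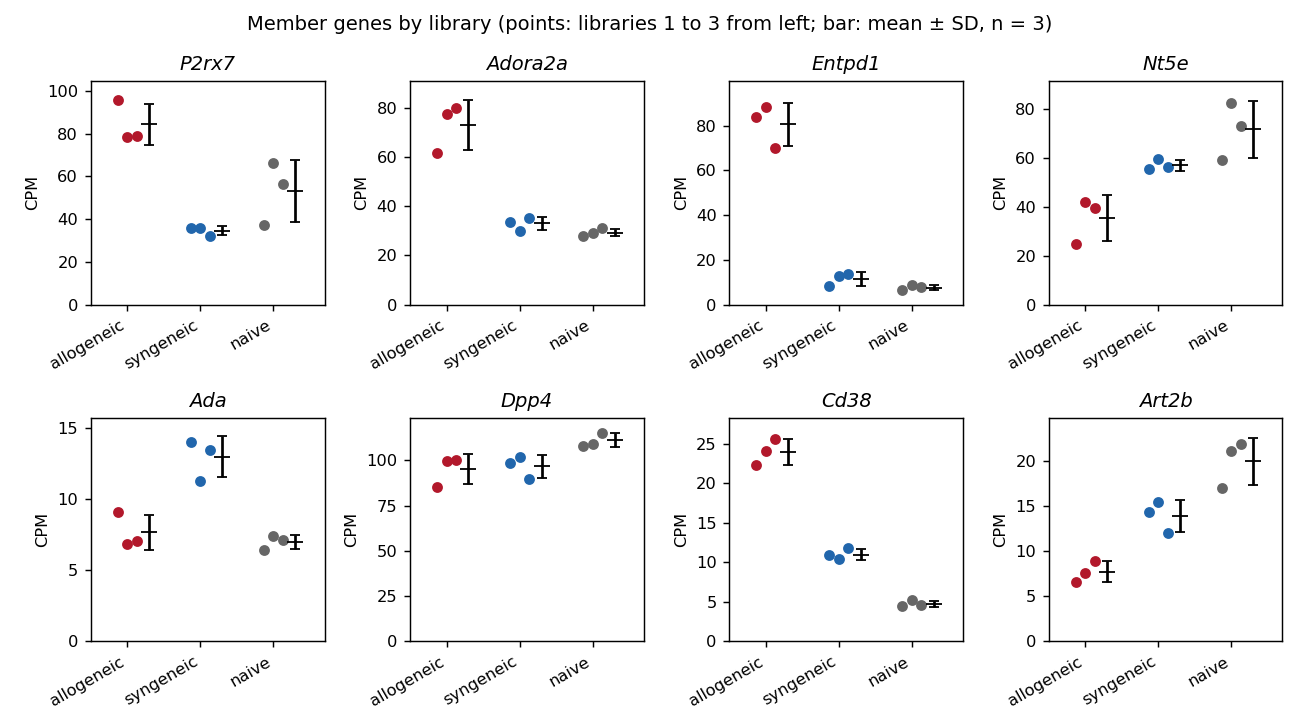
CPM of each member in allogeneic, syngeneic and naive libraries (points: libraries 1 to 3 from left to right; bar: mean ± SD, n = 3). P2rx7, Adora2a, Entpd1 and Cd38 are highest in the allogeneic group, Nt5e and Art2b are lowest there, Ada is highest in the syngeneic group and the 3 groups of Dpp4 lie between 85.5 and 115 CPM.

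The enzyme chain from ATP to adenosine was shifted at its ends in opposite ways. Entpd1 (ENSMUSG00000048120, chromosome 19, 40612366 to 40741602, plus strand), the gene of the ATP-removing enzyme, was at 83.7, 88.3 and 70.0 CPM in allogeneic libraries, against 8.15, 12.7 and 13.8 CPM in syngeneic and 6.41, 8.85 and 7.78 CPM in naive libraries. The allogeneic libraries stood far above the rest, and syngeneic library 1 lay within the naive range. Entpd1 rose 7.15-fold against syngeneic (2.84 ± 0.18, edgeR adjusted p = 4.92e-07) and 11.0-fold against naive libraries (3.45 ± 0.19, edgeR adjusted p = 4.28e-08), the largest change of a member in either comparison. In syngeneic against naive libraries it rose 1.53-fold (0.62 ± 0.17, edgeR adjusted p = 0.0146). That call was lost in edgeR without naive library 1 (adjusted p = 0.0680), syngeneic library 2 (0.0509) or syngeneic library 3 (0.0695).

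CD39 is carried by regulatory T cells and by macrophages, whose markers are given beside it. Of 12 regulatory T-cell markers 6 were called higher and 3 lower in allogeneic against syngeneic libraries, and they summed to 726 to 917 CPM in allogeneic, 269.8 to 354 CPM in syngeneic and 492 to 562 CPM in naive libraries. Foxp3, the defining factor of that lineage, averaged 27.7 ± 6.42 CPM in allogeneic, 26.9 ± 5.26 CPM in syngeneic and 61.1 ± 6.24 CPM in naive libraries. Foxp3 was at 22.2 to 34.8 CPM in allogeneic and at 57 to 68.3 CPM in naive libraries. In allogeneic against naive libraries 6 of the 12 markers were called higher and 6 lower. The part of regulatory T cells in the Entpd1 change was not tested. The macrophage gene Csf1r averaged 1.71 ± 0.366 CPM in allogeneic, 13.7 ± 8.61 CPM in syngeneic and 0.131 ± 0.0346 CPM in naive libraries, and 12 of the 15 macrophage markers were called lower in allogeneic against syngeneic libraries.

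Nt5e (ENSMUSG00000032420, chromosome 9, 88327197 to 88372092, plus strand), the gene of the adenosine-forming enzyme, was at 24.8, 42.0 and 39.7 CPM in allogeneic libraries, against 55.3, 59.6 and 56.2 CPM in syngeneic and 59.3, 82.5 and 72.9 CPM in naive libraries. Every allogeneic library was below every other library, with allogeneic library 1 the lowest, and the syngeneic and naive ranges touched. Nt5e fell in allogeneic against syngeneic (-0.68 ± 0.15, edgeR adjusted p = 0.00306) and against naive libraries (-0.97 ± 0.15, edgeR adjusted p = 0.000173). Its change in syngeneic against naive libraries was -0.29 ± 0.15 (edgeR adjusted p = 0.140), which passed without allogeneic library 1 (adjusted p = 0.0445) and in a fit of those 2 groups alone (-0.31, adjusted p = 0.0459), and was 0.36 with CD3 scaling.

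The ratio of Entpd1 to Nt5e counts within a library does not depend on its total. It was 2.32 on average in allogeneic, 0.197 in syngeneic and 0.107 in naive libraries (geometric means). On the log2 scale the ratio was 1.75, 1.07 and 0.82 in allogeneic libraries, -2.76, -2.23 and -2.03 in syngeneic libraries and -3.21, -3.22 and -3.23 in naive libraries, so the sign differed between the allogeneic group and the others in every library. The log2 difference was 3.56 in allogeneic against syngeneic, 4.43 in allogeneic against naive and 0.88 in syngeneic against naive libraries. Each difference had p = 0.1 in an exact 2-sided permutation test, the smallest that 3 against 3 libraries allow, and 0.107 after Benjamini-Hochberg adjustment over 15 tests of 5 ratios. The ratio of Entpd1 to P2rx7, the ATP-removing enzyme to the ATP receptor, averaged -0.07 ± 0.20 in allogeneic, -1.62 ± 0.47 in syngeneic and -2.77 ± 0.19 in naive libraries (log2, SD, n = 3), with no overlap of groups and the same exact permutation p of 0.1.

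**Figure D3:**
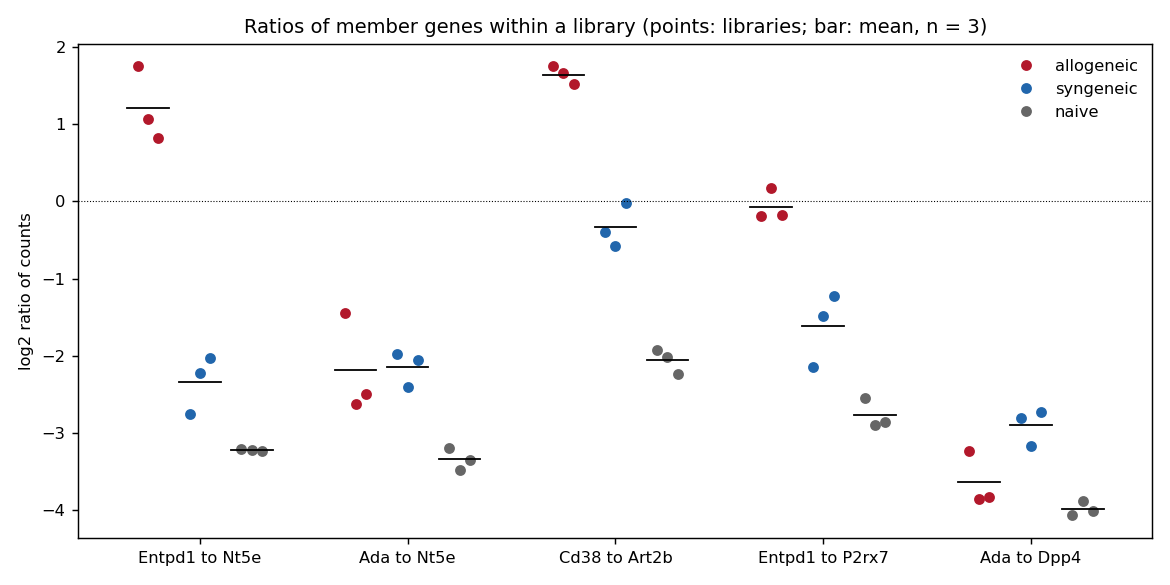
Log2 ratios of counts of 5 pairs of members within each library (points: libraries; bar: mean, n = 3) in allogeneic, syngeneic and naive groups. Entpd1 to Nt5e and Cd38 to Art2b are above 0 in all allogeneic libraries and below 0 in all others, and the groups of Ada to Nt5e overlap between the transplants.

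The enzyme that removes adenosine followed another order. Ada (ENSMUSG00000017697, chromosome 2, 163726584 to 163750239, minus strand) was at 9.12, 6.85 and 7.08 CPM in allogeneic libraries, against 14, 11.3 and 13.5 CPM in syngeneic and 6.45, 7.39 and 7.14 CPM in naive libraries. The syngeneic libraries were above all others, and the allogeneic and naive ranges overlapped. Ada rose 1.91-fold in syngeneic against naive libraries (0.93 ± 0.18, edgeR adjusted p = 0.00143) and fell in allogeneic against syngeneic libraries (-0.73 ± 0.18, edgeR adjusted p = 0.00612). In allogeneic against naive libraries its change was 0.20 ± 0.18 (edgeR adjusted p = 0.343), with a 95% interval of -0.14 to 0.55, and it was -0.01 without allogeneic library 1. Erythroid marker sums were also highest in the syngeneic group, and their part in the Ada change was not tested.

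Dpp4 (ENSMUSG00000035000, chromosome 2, 62330073 to 62412231, minus strand), which trims dipeptides from chemokines and other peptides, was at 85.5, 99.7 and 100.4 CPM in allogeneic libraries, against 98.5, 102 and 89.6 CPM in syngeneic and 108, 109 and 115 CPM in naive libraries. The transplant ranges overlapped, and the naive libraries lay above both. The change was -0.01 ± 0.08 in allogeneic against syngeneic libraries (edgeR adjusted p = 0.918), with a 95% interval of -0.18 to 0.15. It was -0.17 ± 0.08 in allogeneic against naive (edgeR adjusted p = 0.0988) and -0.16 ± 0.08 in syngeneic against naive libraries (edgeR adjusted p = 0.152). Dpp4 was called lower in allogeneic against naive libraries with library sizes alone (-0.22, adjusted p = 0.0472) and in a fit of the 2 groups (-0.20, adjusted p = 0.0427). With CD3 scaling it was -0.57 in allogeneic against syngeneic (adjusted p = 0.00148) and 0.49 in syngeneic against naive libraries (adjusted p = 0.00285). Gm13561, on the opposite strand, shares 232 exon bases with Dpp4.

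The log2 ratio of Ada to Nt5e, the adenosine-removing to the adenosine-forming enzyme, averaged -2.18 ± 0.64 in allogeneic, -2.14 ± 0.22 in syngeneic and -3.34 ± 0.14 in naive libraries (SD, n = 3). The transplant groups overlapped (difference -0.04, exact permutation p = 0.900), and both lay above the naive group (1.16 and 1.20, exact permutation p = 0.1 each). Allogeneic library 1, at -1.44, set most of the spread of its group. The log2 ratio of Ada to Dpp4 averaged -3.64 ± 0.36 in allogeneic, -2.90 ± 0.24 in syngeneic and -3.99 ± 0.10 in naive libraries, with no overlap between groups and an exact permutation p of 0.1 in each comparison.

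The pair that uses NAD moved in opposite directions. Cd38 (ENSMUSG00000029084, chromosome 5, 43868553 to 43912375, plus strand), the gene of the NAD-consuming enzyme, was at 22.3, 24.1 and 25.6 CPM in allogeneic libraries, against 10.9, 10.4 and 11.8 CPM in syngeneic and 4.45, 5.22 and 4.65 CPM in naive libraries. The groups formed 3 separate steps with no overlap. Cd38 rose in allogeneic against syngeneic (1.14 ± 0.10, edgeR adjusted p = 7.38e-06), 5.21-fold in allogeneic against naive (2.38 ± 0.11, edgeR adjusted p = 1.18e-08) and 2.37-fold in syngeneic against naive libraries (1.25 ± 0.11, edgeR adjusted p = 4.24e-06). These calls were kept under all 18 alternatives. CD38 is also made by B cells, plasma cells and NK cells. NK-cell markers (11 genes, Klra8 at 0 in allogeneic) summed to 747 to 825 CPM in allogeneic, 441 to 514 CPM in syngeneic and 209 to 215 CPM in naive libraries, and plasma-cell markers (7 genes) to 254 to 318 CPM, 90.4 to 129.9 CPM and 70.2 to 80.8 CPM in the same order. Nkg7 made up the largest part of the NK-cell sum, at 529 ± 33.4 CPM in allogeneic, 254 ± 33.2 CPM in syngeneic and 119 ± 4.59 CPM in naive libraries. Ncr1 averaged 1.72 ± 0.307 CPM, 0.634 ± 0.336 CPM and 0.271 ± 0.209 CPM in the same order. In allogeneic against syngeneic libraries 6 of the 11 NK-cell markers were called higher and 4 lower, and 3 of the 7 plasma-cell markers higher and 0 lower. The 3 plasma-cell markers called were Xbp1, Prdm1 and Irf4, at 86.3, 72.6 and 74.5 CPM on average in allogeneic libraries. Jchain (edgeR adjusted p = 0.121), Mzb1 (0.422), Sdc1 (0.236) and Tnfrsf17 (0.0673) were not called. The part of these cells in the Cd38 levels was not tested.

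Art2b (ENSMUSG00000030651, chromosome 7, 101576970 to 101585600, minus strand), the gene of the P2X7-modifying enzyme, was at 6.64, 7.61 and 8.94 CPM in allogeneic libraries, against 14.3, 15.5 and 12.0 CPM in syngeneic and 17.0, 21.1 and 21.9 CPM in naive libraries. Its groups also formed 3 separate steps, in the reverse order of Cd38. Art2b fell in allogeneic against syngeneic (-0.84 ± 0.14, edgeR adjusted p = 0.000651), in allogeneic against naive (-1.32 ± 0.14, edgeR adjusted p = 1.25e-05) and in syngeneic against naive libraries (-0.48 ± 0.14, edgeR adjusted p = 0.0171). The last call was lost in edgeR without naive library 3 (adjusted p = 0.0768) or syngeneic library 3 (0.0806). The log2 ratio of Cd38 to Art2b averaged 1.64 ± 0.12 in allogeneic, -0.33 ± 0.28 in syngeneic and -2.06 ± 0.16 in naive libraries (SD, n = 3). The groups did not overlap, and each difference had an exact permutation p of 0.1.

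Art2a-ps, the neighbouring copy of Art2b that is a pseudogene in C57BL/6, was at 3.40 ± 1.05 CPM in allogeneic, 0.986 ± 0.175 CPM in syngeneic and 1.93 ± 0.123 CPM in naive libraries. In the comparisons of allogeneic libraries it rose where Art2b fell. The changes were 1.83 ± 0.27 against syngeneic (edgeR adjusted p = 0.000248) and 0.89 ± 0.26 against naive libraries (edgeR adjusted p = 0.0121). In syngeneic against naive libraries Art2a-ps fell as Art2b did (-0.93 ± 0.27, edgeR adjusted p = 0.0150). That call of Art2a-ps was lost in edgeR without syngeneic library 3 (adjusted p = 0.0616) and with CD3 scaling (-0.28, adjusted p = 0.424). Their GENCODE transcripts were identical at 88.6% of 1184 aligned bases, and 5.1% of the 50-base windows of Art2b occurred unaltered in Art2a-ps, so that a part of the reads could have been counted for either gene.

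Per kilobase of exon the members could be ranked against each other. In allogeneic libraries Adora2a led at 23.8 ± 3.26 CPM per kilobase, ahead of Dpp4 (15.1 ± 1.33), Entpd1 (14.4 ± 1.71) and P2rx7 (14.1 ± 1.62), whose ranges overlapped. Cd38 (6.17 ± 0.426), Nt5e (4.13 ± 1.08), Ada (3.84 ± 0.622) and Art2b (2.73 ± 0.408) followed, with overlap between Nt5e and Ada. In syngeneic libraries Dpp4 (15.3 ± 1.00) and Adora2a (10.8 ± 0.842) led, Nt5e, Ada, P2rx7 and Art2b lay between 6.63 and 4.92 CPM per kilobase on average with each overlapping its neighbour, and Cd38 (2.83 ± 0.178) and Entpd1 (2.07 ± 0.534) came last. In naive libraries Dpp4 led at 17.6 ± 0.605 CPM per kilobase, Adora2a, P2rx7, Nt5e and Art2b averaged 9.58 to 7.07 and overlapped in turn, Ada was at 3.49 ± 0.244, and Entpd1 (1.38 ± 0.219) and Cd38 (1.23 ± 0.103) overlapped at the end. Entpd1 was thus at rank 3 in allogeneic libraries, last in syngeneic and next to last in naive libraries.

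**Figure D4:**
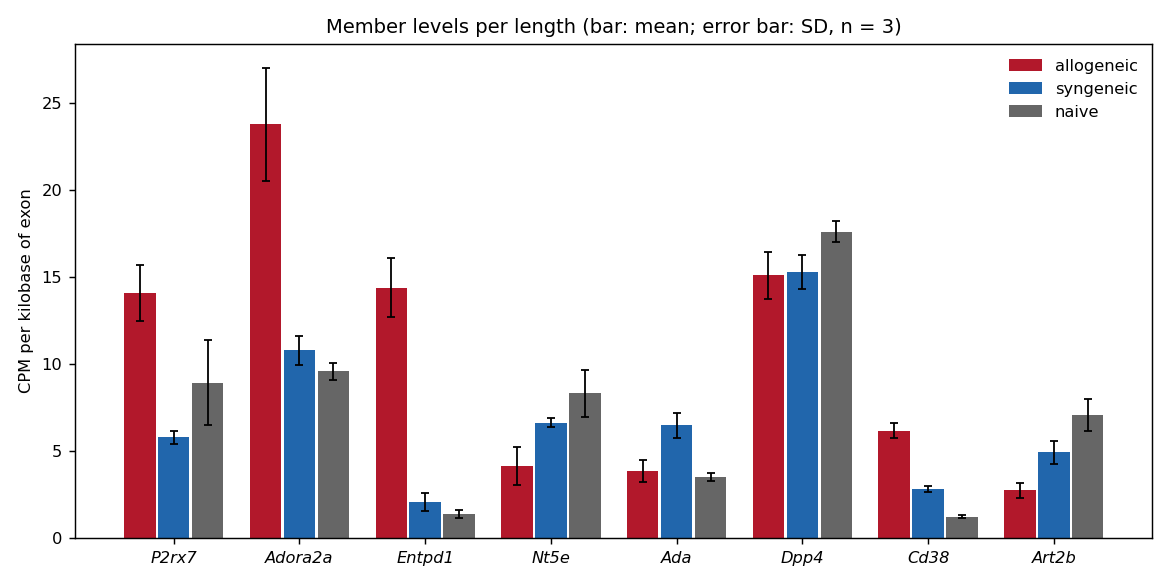
Mean CPM per kilobase of exon of each member in allogeneic, syngeneic and naive libraries (error bar: SD, n = 3). Entpd1 is at 14.4 in allogeneic libraries, against 2.07 in syngeneic and 1.38 in naive libraries, and Dpp4 is at 15.1, 15.3 and 17.6.

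The genes most like each member were found over the 9 libraries, by the root mean square difference of centred log2 CPM among 13926 protein-coding genes. Gna15, a G-protein alpha subunit gene, lay nearest to Entpd1 (0.17) and averaged 116 CPM in allogeneic, 14.4 CPM in syngeneic and 9.93 CPM in naive libraries. Adora2a had Gnpda1 and Rhbdf2 at 0.07, Cd38 had Plp2 at 0.09 and the leukotriene receptor gene Cysltr2 at 0.10, and Ada had Ung, which encodes uracil-DNA glycosylase, at 0.13. P2rx7 had Ndfip1 at 0.20 and the gelsolin gene Gsn at 0.21. Nt5e had E030030I06Rik at 0.11 and Zfp937 at 0.12, Art2b had Btbd16 and Stambpl1 at 0.13, and Dpp4 had Mex3c and Ccdc127 at 0.05. The second neighbours of Entpd1 and Ada were Ptpn3 (0.20) and Chchd6 (0.14).

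The other genes of the same pathways were read from 11 lists with 139 genes besides the members, of which 124 were tested. In allogeneic against syngeneic libraries 41 were higher and 31 lower, beside 24.3% and 20.7% of all genes, and their median log2 fold change was -0.05 against -0.02 over all genes. With CD3 scaling the split was 17 higher and 66 lower. In allogeneic against naive libraries 56 were higher and 40 lower, beside 31.8% and 25.9% of all genes, with a median of 0.24 against -0.01 over all genes. In syngeneic against naive libraries 40 were higher and 27 lower, beside 22.4% and 19.5% of all genes, with a median of 0.09 against 0.01, and with CD3 scaling 86 were higher and 3 lower.

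**Figure D5:**
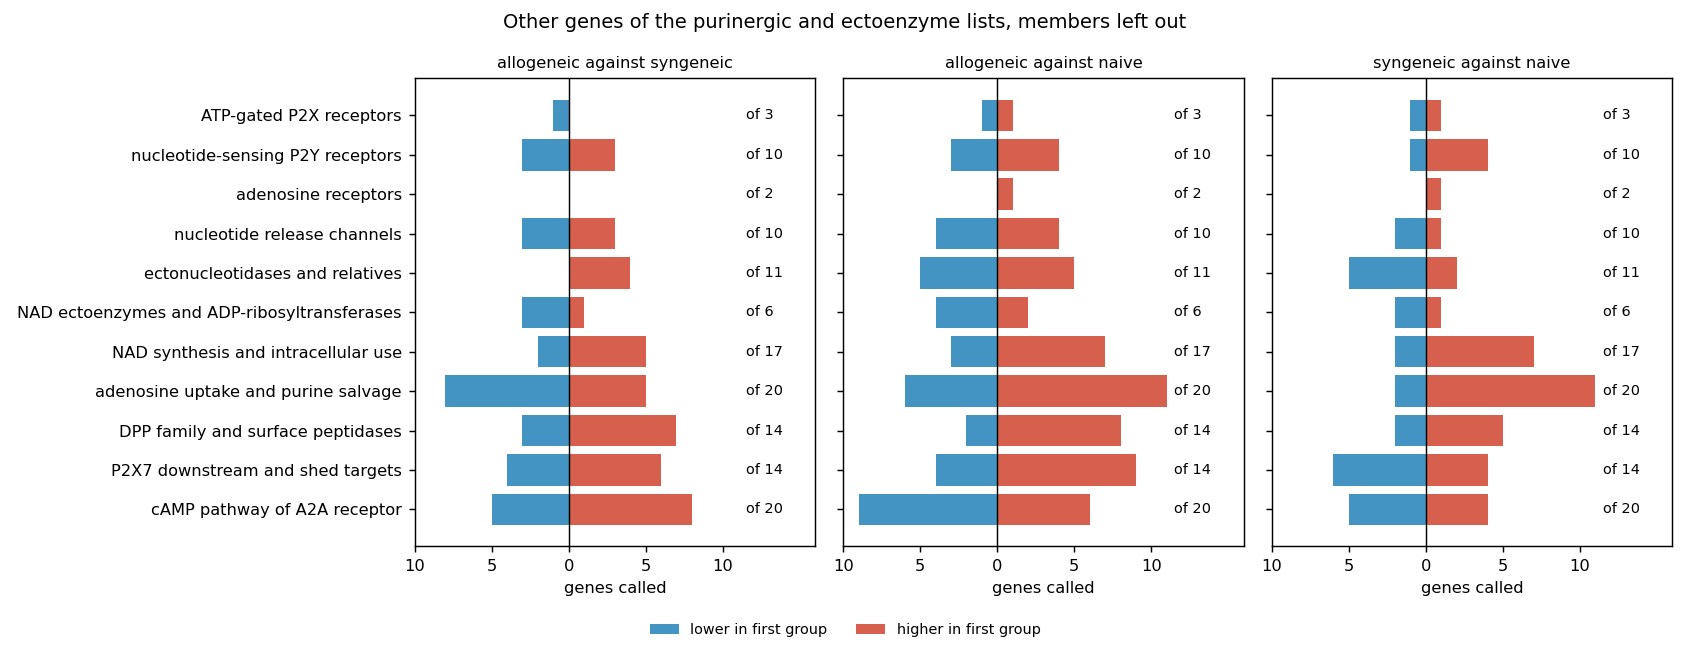
Number of genes of each pathway list called higher (right) or lower (left) in the first-named group of 3 comparisons (edgeR adjusted p under 0.05), with the number tested at the right and the members left out. Ectonucleotidases and relatives have 4 higher and 0 lower calls in allogeneic against syngeneic libraries, and adenosine uptake and purine salvage has 11 higher calls in each comparison with naive libraries.

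Among ATP-gated channels, P2rx4 moved opposite to P2rx7 in the comparisons of allogeneic libraries. P2rx4 averaged 8.46 ± 0.482 CPM in allogeneic, 16.2 ± 1.72 CPM in syngeneic and 29.1 ± 1.64 CPM in naive libraries, with no overlap. It fell in allogeneic against syngeneic (-0.92 ± 0.10, edgeR adjusted p = 3.26e-05) and against naive libraries (-1.73 ± 0.10, edgeR adjusted p = 9.99e-08). In syngeneic against naive libraries P2rx4 fell as P2rx7 did (-0.80 ± 0.10, edgeR adjusted p = 8.68e-05). With CD3 scaling that change of P2rx4 was -0.16 (adjusted p = 0.401). P2rx1 averaged at most 0.907 CPM and P2rx2, P2rx3, P2rx5 and P2rx6 at most 0.197 CPM in any group, and of the 3 tested genes of this list besides P2rx7, 0 were higher and 1 lower in allogeneic against syngeneic libraries. Of 10 nucleotide-sensing receptors of the P2Y group 3 were higher and 3 lower in allogeneic against syngeneic libraries. P2ry12, an ADP receptor, averaged 4.97 ± 0.957 CPM in allogeneic, 0.320 ± 0.0879 CPM in syngeneic and 0.0437 ± 0.000369 CPM in naive libraries, and rose by 3.97 ± 0.24 against syngeneic libraries (edgeR adjusted p = 3.11e-07). P2ry14, a UDP-glucose receptor, averaged 5.70 ± 0.500 CPM, 1.01 ± 0.306 CPM and 0.745 ± 0.0769 CPM in allogeneic, syngeneic and naive libraries and rose by 2.53 ± 0.24 against syngeneic libraries (edgeR adjusted p = 8.11e-06). The other adenosine receptor genes were low: Adora3 averaged 0.672 ± 0.134 CPM in allogeneic, 0.617 ± 0.224 CPM in syngeneic and 0.422 ± 0.140 CPM in naive libraries, and Adora2b averaged at most 0.331 CPM and Adora1 at most 0.0108 CPM in any group.

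The list of ectonucleotidases and relatives, besides Entpd1 and Nt5e, had 4 higher and 0 lower of 11 tested in allogeneic against syngeneic libraries. The higher ones were Entpd3, Entpd7, Enpp1 and Enpp2. Enpp1, which cleaves ATP to AMP and pyrophosphate, averaged 31.3 ± 4.36 CPM in allogeneic, 10.6 ± 1.27 CPM in syngeneic and 14.4 ± 0.904 CPM in naive libraries (1.58 ± 0.10 in allogeneic against syngeneic, edgeR adjusted p = 5.85e-07). Entpd3 was lower in level, with 1.05 ± 0.561 CPM in allogeneic libraries, 0.198 ± 0.0380 CPM in syngeneic libraries and no count in naive libraries, which allows up to 0.00819 CPM (3 counts over the group, counting error only). In allogeneic against naive libraries the list had 5 higher and 5 lower of 11, the lower ones including Enpp5 (-1.46 ± 0.18, edgeR adjusted p = 3.09e-05) and Acpp, a phosphatase gene (-0.83 ± 0.15, edgeR adjusted p = 0.000472).

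Of 6 NAD ectoenzyme and ADP-ribosyltransferase genes besides Cd38 and Art2b, 1 was higher (Art2a-ps) and 3 lower in allogeneic against syngeneic libraries. Art4 averaged 0.314 ± 0.243 CPM in allogeneic, 16.2 ± 5.91 CPM in syngeneic and 9.71 ± 1.29 CPM in naive libraries and fell by 5.68 on the log2 scale against syngeneic libraries (edgeR adjusted p = 7.79e-06). In humans Art4 carries a blood group of red cells. The erythroid sum was 22.3 to 62.8 CPM in allogeneic, 2342 to 6143 CPM in syngeneic and 2.74 to 3.43 CPM in naive libraries, and its part in the Art4 levels was not tested. Bst1, the neighbour of Cd38 and a related enzyme gene, was at 2.23 ± 0.696 CPM in allogeneic, 1.91 ± 0.790 CPM in syngeneic and 0.327 ± 0.0428 CPM in naive libraries, and rose in allogeneic against naive (2.80 ± 0.34, edgeR adjusted p = 2.94e-05) and syngeneic against naive libraries (2.56 ± 0.34, edgeR adjusted p = 0.000111).

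In adenosine uptake and purine salvage 5 of 20 genes were higher and 8 lower in allogeneic against syngeneic libraries. Xdh, which oxidises hypoxanthine and xanthine, averaged 234 ± 11.6 CPM in allogeneic, 61.1 ± 8.33 CPM in syngeneic and 41.3 ± 1.98 CPM in naive libraries (1.96 ± 0.09 in allogeneic against syngeneic, edgeR adjusted p = 5.64e-08). Of 3 AMP deaminase genes Ampd1 and Ampd3 fell, while Ampd2, named after its values were seen, averaged 58.0 ± 6.93 CPM in allogeneic, 57.3 ± 3.24 CPM in syngeneic and 40.5 ± 1.24 CPM in naive libraries (0.02 in allogeneic against syngeneic, edgeR adjusted p = 0.836). Ampd1 averaged 0.197 ± 0.187 CPM in allogeneic, 5.62 ± 0.947 CPM in syngeneic and 10.7 ± 1.16 CPM in naive libraries (-4.73 ± 0.46 in allogeneic against syngeneic, edgeR adjusted p = 1.14e-05). Ampd3 averaged 5.65 ± 0.568 CPM in allogeneic, 37.2 ± 13.8 CPM in syngeneic and 24.0 ± 0.804 CPM in naive libraries (-2.68 ± 0.23, edgeR adjusted p = 4.21e-06). The equilibrative transporter gene Slc29a1 averaged 61.2 ± 4.76 CPM in allogeneic, 65.9 ± 7.62 CPM in syngeneic and 31.6 ± 0.509 CPM in naive libraries and rose in syngeneic against naive libraries (1.10 ± 0.10, edgeR adjusted p = 7.21e-06). Gda, the guanine deaminase gene, was at 11.8 ± 2.07 CPM in allogeneic, 58.7 ± 27.3 CPM in syngeneic and 0.168 ± 0.0236 CPM in naive libraries. Macrophage marker sums, at 51.0 to 88.9 CPM in allogeneic, 54.2 to 212 CPM in syngeneic and 5.00 to 6.43 CPM in naive libraries, overlapped between the transplants. Of the 15 markers, however, 12 were called lower and 1 higher in allogeneic against syngeneic libraries. The part of macrophages in the Gda levels was not tested.

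Targets downstream of P2X7 had 6 higher and 4 lower of 14 in allogeneic against syngeneic libraries. Casp1 averaged 31.3 ± 1.41 CPM in allogeneic, 8.70 ± 1.48 CPM in syngeneic and 5.02 ± 0.706 CPM in naive libraries (1.88 ± 0.15 in allogeneic against syngeneic, edgeR adjusted p = 2.04e-06), and its adaptor gene Pycard rose by 1.04 ± 0.13 (edgeR adjusted p = 6.12e-05). The sensor gene Nlrp3 was at 0.360 ± 0.115 CPM in allogeneic, 1.65 ± 1.02 CPM in syngeneic and 0.0199 ± 0.0110 CPM in naive libraries. Il6ra, whose product is among those shed after P2X7 opening, averaged 21.4 ± 3.97 CPM in allogeneic, 212 ± 19.5 CPM in syngeneic and 359.5 ± 2.82 CPM in naive libraries and fell by 3.30 on the log2 scale in allogeneic against syngeneic libraries (edgeR adjusted p = 1.58e-08). These are mRNA levels, and shedding itself was not measured.

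In the cyclic AMP pathway downstream of Adora2a 8 of 20 genes were higher and 5 lower in allogeneic against syngeneic libraries. Adcy6, an adenylyl cyclase gene, averaged 8.36 ± 0.476 CPM in allogeneic, 52.5 ± 10.8 CPM in syngeneic and 50.2 ± 2.62 CPM in naive libraries (-2.62 ± 0.13 in allogeneic against syngeneic, edgeR adjusted p = 6.48e-08). The phosphodiesterase genes, whose products break down cyclic AMP, were split. Pde4a averaged 20.1 ± 5.05 CPM in allogeneic, 3.90 ± 1.43 CPM in syngeneic and 1.24 ± 0.400 CPM in naive libraries and rose by 2.39 ± 0.28 in allogeneic against syngeneic libraries (edgeR adjusted p = 4.43e-05). Pde4d averaged 20.8 ± 5.46 CPM, 36.2 ± 4.33 CPM and 82.5 ± 3.46 CPM in the same order of groups and fell by 0.80 on the log2 scale (edgeR adjusted p = 0.000821). In the list of the DPP family and other surface peptidases, 7 of 14 genes were higher and 3 lower in allogeneic against syngeneic libraries. Ggt1 averaged 142 ± 37.4 CPM in allogeneic, 36.5 ± 4.36 CPM in syngeneic and 25.7 ± 0.950 CPM in naive libraries, and Ggt5 averaged 2.02 ± 0.621 CPM, 10.4 ± 0.698 CPM and 25.1 ± 0.341 CPM, so that these gamma-glutamyltransferase genes ran in opposite directions (1.95 ± 0.15 and -2.37 ± 0.18 in allogeneic against syngeneic, edgeR adjusted p = 1.92e-06 and 1.51e-06).

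In NAD synthesis and intracellular use 5 of 17 genes were higher and 2 lower in allogeneic against syngeneic libraries, with Sirt2, an NAD-dependent deacetylase gene, at 102 ± 12.9 CPM in allogeneic, 52.2 ± 1.23 CPM in syngeneic and 54.9 ± 2.23 CPM in naive libraries (0.98 ± 0.08 against syngeneic, edgeR adjusted p = 3.36e-06). Of 10 nucleotide release channel genes 3 were higher and 3 lower. Calhm2 averaged 26.9 ± 3.63 CPM in allogeneic, 11.9 ± 0.505 CPM in syngeneic and 15.7 ± 0.456 CPM in naive libraries (1.19 ± 0.09 against syngeneic, edgeR adjusted p = 1.65e-06). Slc17a9, the vesicular ATP transporter gene, averaged 24.2 ± 8.60 CPM, 46.4 ± 2.85 CPM and 50.8 ± 3.08 CPM in the same order and fell by 0.95 on the log2 scale against syngeneic libraries (edgeR adjusted p = 0.00186).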

How the data were processed

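The authors deposited 1 table of raw counts per gene, with Ensembl identifiers, for 9 libraries. Per the submitters' processing notes, HTSeq 0.6.1, Bowtie2 2.2.1 and TopHat2 2.0.13 were used with GRCm38, and FastQC 0.11.3. Annotation release, strand setting and filters were not given in the sources used here, so reads of overlapping or near-identical genes may be mixed. Groups came from the transplant type in the labels. The strain label was not used, since it gives 1 strain for every library against the protocols. Symbols, coordinates and exon lengths came from GENCODE M21, which matched 29014 of 29229 identifiers. Panx3, Pnp and Ahsp were not analysed here.

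Genes were kept by filterByExpr (19609), scaled by TMM and tested with edgeR 4.0.16 (glmQLFit and glmQLFTest, 3 groups in 1 fit, Benjamini-Hochberg adjustment over all tested genes, R 4.3.3). The test was run on simulated counts in which few genes were changed, which cannot check the choice of scaling. Intervals of changes are 1.96 SE either side, a normal multiplier that makes them narrower than 95% intervals at these few degrees of freedom. Log2 ratios of members were compared by exact 2-sided permutation. Patterns nearest to a member used log2 CPM with 0.1 CPM added. The members and gene lists were chosen with earlier results of these data known. All 8 members were named, and from each pathway list up to 3 called genes in each direction with a group mean of at least 1 CPM and the largest change; from the receptor, ectonucleotidase and NAD ectoenzyme lists any gene could be named. Alternatives were DESeq2 1.42.0, its size factors, limma 3.58.1 (voom), library sizes alone, CD3-gene scaling, no low-count filter, 2 groups per fit, a replicate block, no ribosomal RNA locus and leaving out each library. Replicates differed by more than sampling noise (chi-square 22.5 to 362 per degree of freedom). Transplant replicates were separate pools of recipients; whether naive libraries were pooled is not stated, so their spread may be technical in part.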

Additional observations from a re-analysis of the deposited data

Results flagged for a closer look

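P2rx7 changed against naive libraries in opposite directions in the transplants: all 3 allogeneic libraries were above all naive libraries (0.73 ± 0.18 on the log2 scale) and all 3 syngeneic libraries were below them (-0.58 ± 0.18). The difference between these changes is the allogeneic against syngeneic contrast, 1.31 ± 0.19 (edgeR adjusted p = 0.000197), and both changes use the same naive libraries. Naive P2rx7 levels spread from 37.5 to 66.1 CPM, the widest range of a member in naive libraries relative to its mean. Scaled to CD3 complex genes, the syngeneic change of P2rx7 was 0.05 (edgeR adjusted p = 0.837). Cd4 was lowest in syngeneic libraries (198 ± 25.8 CPM, against 449.6 ± 17.5 CPM in naive libraries). The part of CD4 and CD8 make-up in the P2rx7 change was not tested.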

How the results depend on the processing

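Of 432 alternative values of the 24 member changes, 409 kept their direction and their side of the threshold. With scaling to CD3 complex genes, calls in allogeneic against syngeneic libraries were 1336 higher and 9967 lower over all genes and 17 higher and 66 lower over pathway genes, with Lrrc8c at -0.00, Panx1 at -0.08, Prep at -0.00 and Dpp7 at -0.08 on the log2 scale. In syngeneic against naive libraries the same scaling gave 5 members higher and 0 lower, 10651 and 521 genes, and 86 and 3 pathway genes. The log2 changes were then 0.05 for P2rx7, 0.36 for Nt5e, 0.16 for Art2b, 0.49 for Dpp4, 0.07 for Lrrc8a, 0.28 for Calhm2, 0.17 for Acpp, 0.24 for Enpp1, 0.18 for Nadsyn1, 0.28 for Slc28a2, 0.33 for Adal, 0.29 for Lnpep, 0.16 for Ano6 and 0.16 for Prkacb. CD3 genes were lowest in syngeneic libraries, so that the scaling raises all genes there. Leaving out 1 library, Dpp4 in allogeneic against syngeneic libraries ranged from -0.08 to 0.05, Ada in allogeneic against naive libraries from -0.01 to 0.31, the lower members in syngeneic against naive libraries from 0 to 3 and the log2 ratio of Ada to Nt5e in allogeneic against syngeneic libraries from -0.41 to 0.18; the cause was not tested.

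Of 2358 alternative values of 131 named pathway changes, 68 lost their call and 14 turned sign. Same-numbered libraries of different groups deviated together at r of -0.12 to 0.26, and libraries with different numbers at r of -0.25 to 0.19. The labels state no pairing, and these correlations cannot show whether the numbers pair libraries. With a replicate block 4 members were higher and 3 lower in allogeneic against syngeneic, 4 and 2 in allogeneic against naive, and 3 and 2 in syngeneic against naive libraries, and the pathway counts of the first comparison were 40 and 30. With 3 libraries a group the smallest exact p is 0.1, and low genes such as Adora1 rest on few counts.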
